A study of Homo sapiens with 9 samples.

Results

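Apoptosis regulators and p53 pathway genes were followed in HT29, a human cell line established from a colon cancer. The group was fixed as a list of 38 gene symbols, and each gene was read from its brightest probe set with a single gene symbol, by the mean log2 intensity over 9 arrays. Of the 38 genes, 36 had such a probe set among the 19775 genes measured in this way. BBC3, a BH3-only protein also called PUMA, and FDXR, a mitochondrial reductase that p53 induces, were not analysed here. The rule itself uses no measured difference between samples, but the members were chosen with earlier results of these data known. Counts of members set against all genes therefore describe this list and do not test it.

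Instant caffeinated coffee (ICC) was given at 7 µg/mL, caffeic acid (CA), a phenolic acid present in coffee, at 1.68 µg/mL, each over 24 h, and Control cells had no treatment. Each group had 3 Affymetrix HG-U133 Plus 2.0 arrays, numbered 1 to 3 in the labels, and total RNA was hybridised. Neither the origin of the replicates, as separate cultures or not, nor the meaning of their number is labelled. The p-values therefore reflect the spread among these 9 arrays alone, and that spread may be technical. In bulk RNA, fewer cells with a transcript and less of it per cell cannot be told apart.

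Apoptosis through mitochondria is set by the BCL2 family. Pro-survival members hold the pore-forming proteins BAX and BAK1 in check, BH3-only proteins relieve that hold, and the pore releases cytochrome c, which drives the assembly of APAF1 and caspase-9. Death receptors at the cell surface start a second route through FADD and caspase-8, and both routes end in effector caspases, which the inhibitor of apoptosis proteins restrain. The transcription factor p53 induces many genes of both routes and of cell cycle arrest after DNA damage, and MDM2 and MDM4 restrain it. Several of the genes followed here, such as GADD45A, PMAIP1 and TNFRSF10B, are also known to be induced by stress pathways that do not need p53.

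The promoters of PMAIP1, FAS and GADD45B are shown because PMAIP1 and FAS passed the test between replicate numbers, and GADD45B, which did not pass, is a relative of GADD45A, a gene that passed and has no listed promoter. Each sequence is the 250 bases before a RefSeq transcription start in GRCh38.p14, on the plus strand, and for FAS it belongs to 1 of 3 listed starts. Capitals mark matches, on either strand, to 5 short motifs. The first, TGACG, is the half-site of the cAMP response element that ATF and CREB factors recognise. The second, CCAAT, is the box that the factor NF-Y binds. The third, TATAAA, is the TATA box near many starts. The fourth, GGGCGG, is the GC box that SP1 binds. The last, TGANTCA with any base at N, is a looser form of the AP-1 site that FOS and JUN factors bind.
PMAIP1 (chr18:59899746-59899995): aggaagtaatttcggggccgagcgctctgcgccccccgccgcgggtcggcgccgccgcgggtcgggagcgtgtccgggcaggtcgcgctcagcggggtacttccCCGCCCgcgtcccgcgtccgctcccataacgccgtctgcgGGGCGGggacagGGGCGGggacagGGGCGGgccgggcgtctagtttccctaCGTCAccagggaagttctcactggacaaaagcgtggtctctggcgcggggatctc
FAS (chr10:88990548-88990797): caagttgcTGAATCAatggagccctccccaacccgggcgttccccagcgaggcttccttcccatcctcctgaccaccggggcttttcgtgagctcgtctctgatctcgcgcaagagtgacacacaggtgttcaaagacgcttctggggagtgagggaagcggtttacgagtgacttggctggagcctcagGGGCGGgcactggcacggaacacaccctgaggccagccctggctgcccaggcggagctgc
GADD45B (chr19:2475877-2476126): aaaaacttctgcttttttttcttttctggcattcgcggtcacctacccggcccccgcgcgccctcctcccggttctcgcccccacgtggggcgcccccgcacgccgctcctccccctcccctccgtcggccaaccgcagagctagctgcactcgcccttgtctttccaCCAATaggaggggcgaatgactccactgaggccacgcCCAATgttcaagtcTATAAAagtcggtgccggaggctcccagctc
The PMAIP1 stretch held 4 GC boxes and a cAMP half-site match that began 55 bases before the start. The FAS stretch held a match to this looser AP-1 pattern, TGAATCA, 242 bases and a GC box 60 bases before the start. The GADD45B stretch held CCAAT at 82 and 45 bases and TATAAA at 31 bases before the start. Of the members, 29 had a listed promoter, with 58 starts in all. BCL2L2, MCL1, BIK, TNFRSF10A, TNFRSF10B, CASP10, TP53INP1, RRM2B and GADD45A had no entry. The GC box stood in 65.5% of the member starts and in 42.6% of 35116 starts in the table, TGACG in 29.3% and 21.2%, CCAAT in 37.9% and 32.0%, TATAAA in 5.17% and 10.7%, and TGANTCA in 10.3% and 6.57%. The motifs do not overlap one another in these 3 stretches, and a match describes letters only.

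Array medians were 43.8 to 46.6 intensity units, and arrays correlated across genes with r between 0.995 and 0.998. Colon epithelial markers were present, with 9 of 12 above the median log2 intensity of all genes, 6.46, while CDX2, CDH17 and GPA33 were below it. Fibroblast markers were above that median for 1 of 6 genes (COL1A1), endothelial markers for 0 of 3, and leukocyte markers for 2 of 4 (CD14 and LYZ). The summed level of the leukocyte markers, in which LYZ weighs most, ranged from 12.83 to 13.22 in ICC, from 12.80 to 13.17 in CA and from 13.01 to 13.23 in Control on the log2 scale. The summed fibroblast level was 8.44 to 8.57 in ICC, 8.35 to 8.48 in CA and 8.27 to 8.35 in Control, and the endothelial one was 6.79 to 7.00 in ICC, 6.70 to 6.81 in CA and 6.67 to 6.80 in Control. The part of these differences in the values of the members was not tested.

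Most of the apoptosis genes lay above the median of all genes. Over the 9 arrays 33 of the 36 had a mean log2 intensity above 6.46, and the member means ran from 4.98 for TP53INP1, a stress protein that p53 induces, to 12.74 for CYCS, cytochrome c. BCL2, the founding pro-survival protein, CASP10, an initiator caspase, and TP53INP1 were below the median. Intensities of different probe sets are not on one scale, so these levels do not rank the genes. Across the 9 arrays the range of a member lay between 0.15 log2 for BCL2 and 1.45 log2 for PMAIP1, which encodes the BH3-only protein NOXA. BCL2 was listed at exactly the same value, 6.19, on 5 of the 9 arrays. Such equal values between arrays occurred in 10 of the 36 members and in 49.4% of all genes.

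The arrays of the members separated more by replicate number than by treatment. Replicate number accounted for a median of 49.6% of a member's sum of squares over the 9 arrays, and treatment for 10.2%. Over all genes the medians were 31.8% for the number and 21.8% for treatment. The number accounted for more than treatment in 26 of 36 members (72.2%) and in 58.5% of all genes. The share by number was 91.2% for GADD45A, a growth arrest and DNA damage protein, 90.5% for MCL1, a short-lived pro-survival protein, and 88.5% for BIK, a BH3-only protein at the endoplasmic reticulum. Treatment accounted for 48.4% in TNFRSF10A, 48.1% in CYCS and 47.8% in XIAP, the largest treatment shares among the members.

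**Figure D1:**
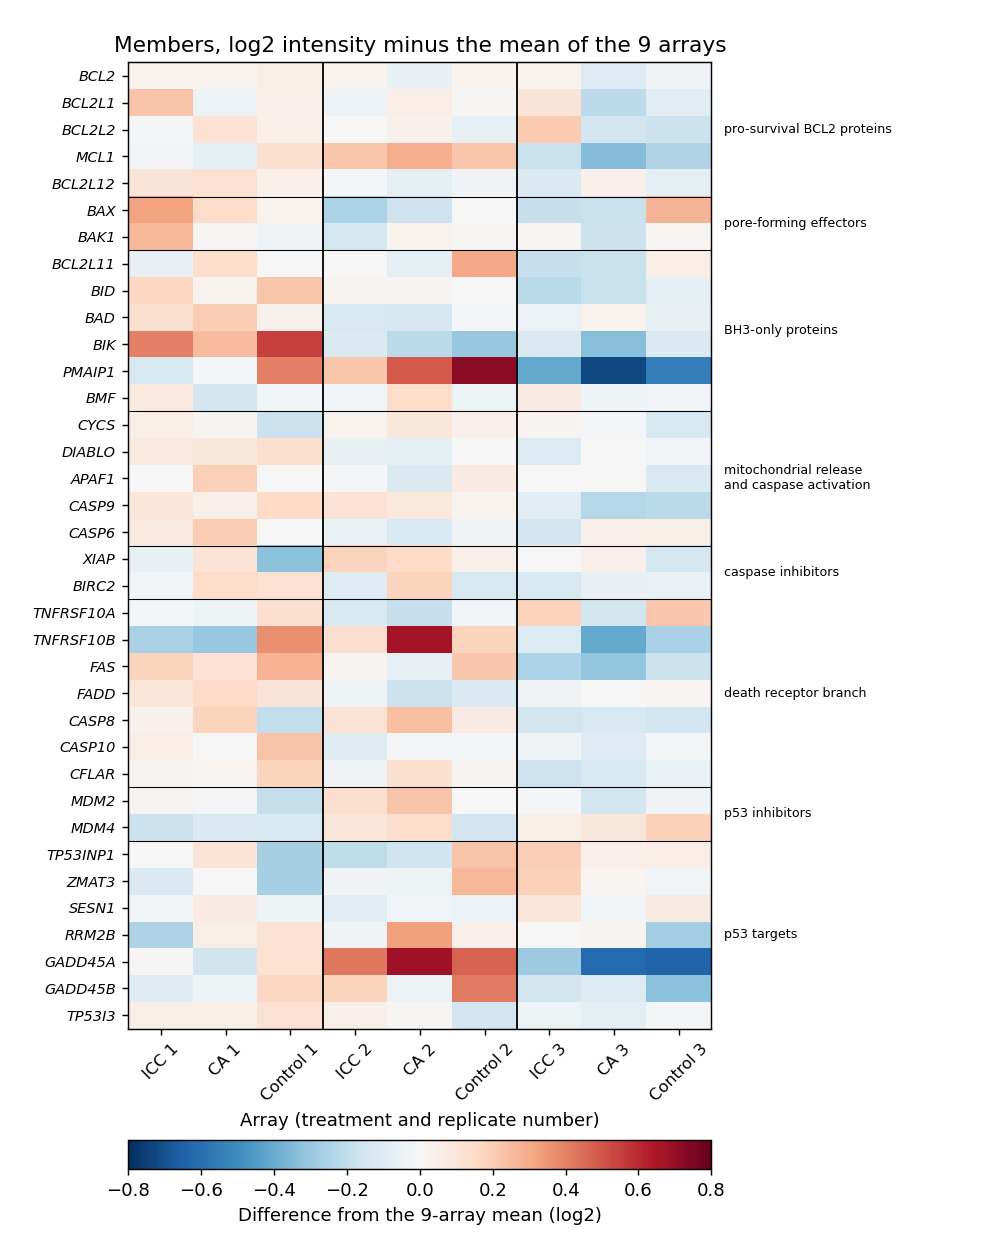
Log2 intensity of each of 36 genes minus its mean over the 9 arrays, with genes in rows by role and arrays in columns by replicate number (ICC, CA and Control within each). Red is above and blue below the gene's mean; PMAIP1, GADD45A and MCL1 are red on all 3 number 2 arrays and blue on all 3 number 3 arrays.

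Caffeic acid was set against no treatment to ask which death and survival genes respond to a single coffee phenol. No member passed the test in cells with CA (0 of 36, limma, adjusted p under 0.05), and neither did any of the 19775 genes (0.00%). At an unadjusted p under 0.05, 2 of 36 members passed, against 4.47% of all genes. The median difference of CA minus Control was -0.01 log2 over the members, with 15 of 36 above 0, and 0.003 log2 over all genes, with 51.4% above 0. The differences ran from -0.28 log2 (PMAIP1) to 0.24 log2 (XIAP), and the median half-width of their 95% intervals was 0.22 log2, or 0.17 log2 with the replicate number as a block.

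XIAP, which binds and blocks caspases, had 10.77, 10.81 and 10.70 log2 in CA (numbers 1 to 3), against 10.33, 10.70 and 10.52 in Control. The groups did not overlap, although the lowest CA array and the highest Control array were both 10.70 after rounding. The difference was 0.24 ± 0.10 log2 (SE; unadjusted p = 0.0359, adjusted p = 0.996), and CA was higher in 3 of 3 same-numbered pairs. XIAP was the 1 member of 36 that lay entirely above Control, against 4.40% of all genes. Its 7 probe sets disagreed, with 5 above 0 and differences from -0.27 to 0.24 log2.

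TNFRSF10A, the death receptor DR4 that binds the ligand TRAIL, had 7.57, 7.43 and 7.46 log2 in CA, against 7.74, 7.59 and 7.82 in Control. The groups did not overlap, and 1 of 36 members lay entirely below Control in this way, against 3.46% of all genes. The difference was -0.23 ± 0.09 log2 (unadjusted p = 0.0337, adjusted p = 0.996). All 3 of its probe sets were below 0, between -0.39 and -0.17 log2.

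Among the other members with the largest moderated t, CASP8, the initiator caspase of the receptor route, differed by 0.19 log2 and CYCS by 0.12 log2. RRM2B, a ribonucleotide reductase subunit that p53 induces, differed by 0.17 log2. The differences were -0.16 log2 for BCL2L11, the BH3-only protein BIM, -0.20 log2 for the death receptor FAS and -0.10 log2 for CASP10. None of these 6 passed, with adjusted p between 0.996 and 1. All 5 FAS probe sets were below 0 in CA, between -0.20 and -0.03 log2. Of the 3 CYCS probe sets, 1 was above 0.

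Each gene was counted in 1 role. The p53 targets of these counts were TP53INP1, ZMAT3, SESN1, RRM2B, GADD45A, GADD45B and TP53I3. BAX, PMAIP1, FAS, TNFRSF10B and MDM2 were counted in other roles. Across roles, CA was above Control in 2 of 5 pro-survival genes (median -0.05 log2), 0 of 2 pore-forming genes (-0.11), 2 of 6 BH3-only genes (-0.12) and 3 of 5 genes of mitochondrial release and caspase activation (0.04). It was above Control in 2 of 2 caspase inhibitors (0.18), 1 of 7 death receptor genes (-0.10), 2 of 2 p53 inhibitors (0.08) and 3 of 7 p53 targets (-0.001). For the p53 inhibitors this held on the brightest probe sets and not on most others. Of 10 MDM2 probe sets 1 was above 0 (-0.31 to 0.10 log2), and of 6 MDM4 probe sets 2 were (-0.35 to 0.09 log2). Same-numbered pairs were higher in CA in 3 of 3 for BCL2L2, CYCS, XIAP and CASP8 (4 of 36, 13.8% of all genes) and lower in 3 of 3 for BCL2, PMAIP1, TNFRSF10A and FAS (4 of 36, 13.9% of all genes). Neither count exceeds the share over all genes.

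With the replicate number as a block, 0 members and 3 genes in all (0.0152%) passed for CA against Control. At an unadjusted p under 0.05 the block gave 5 of 36 members, against 8.54% of all genes. The unadjusted p was 0.00955 for XIAP, 0.0115 for TNFRSF10A, 0.0121 for FAS, 0.0301 for CASP8 and 0.0474 for PMAIP1, and the adjusted p lay between 0.457 and 0.581. PMAIP1 had 9.48, 9.99 and 8.77 log2 in CA, against 9.90, 10.22 and 8.94 in Control, so it was lower in each pair while the groups overlapped over most of their range. Its other probe set differed by 0.03 log2.

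Instant coffee was set against no treatment to ask which of these genes respond to the whole beverage. No member passed (0 of 36, with 0.00% of all genes), and 0 of 36 reached an unadjusted p under 0.05, against 7.73% of all genes. The median difference of ICC minus Control was 0.004 log2 over the members, with 20 of 36 above 0, and 0.03 log2 over all genes, with 60.2% above 0. The differences ran from -0.30 log2 (PMAIP1) to 0.18 log2 (XIAP), and the smallest adjusted p of a member was 0.663. The groups overlapped or met in every member, so 0 of 36 lay entirely above Control (8.46% of all genes) and 0 of 36 entirely below it (3.50% of all genes).

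BCL2L11 had 8.60, 8.66 and 8.48 log2 in ICC, against 8.66, 8.98 and 8.72 in Control, and was lower in 3 of 3 pairs. The difference of -0.20 ± 0.11 log2 did not pass (unadjusted p = 0.0838). Of its 7 probe sets 5 were below 0, and they ran from -0.34 to 0.19 log2. XIAP had 10.60, 10.84 and 10.66 log2 in ICC, a difference from Control of 0.18 ± 0.10 log2 (unadjusted p = 0.0987), and was higher in 3 of 3 pairs. Its probe sets split 4 to 3, between -0.37 and 0.31 log2.

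CYCS differed by 0.12 log2 and the pro-survival genes BCL2L2 (BCL-w) and BCL2L1 (BCL-xL) by 0.13 and 0.11 log2. MDM2, the ubiquitin ligase that marks p53 for degradation, differed by 0.12 log2 on its brightest probe set, and 2 of its 10 probe sets were above 0. CFLAR, which encodes the caspase-8 inhibitor FLIP, differed by -0.11 log2 and CASP10 by -0.09 log2. The adjusted p of these 6 genes lay between 0.707 and 0.812. All 4 BCL2L1 probe sets were above 0, between 0.02 and 0.31 log2, and all 3 TNFRSF10A probe sets were below 0, between -0.40 and -0.09 log2.

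ICC was above Control in 4 of 5 pro-survival genes (median 0.01 log2), 1 of 2 pore-forming genes (-0.05), 3 of 6 BH3-only genes (-0.03) and 3 of 5 genes of mitochondrial release and caspase activation (0.01). It was above Control in 1 of 2 caspase inhibitors (0.06), 2 of 7 death receptor genes (-0.09), 2 of 2 p53 inhibitors (0.07) and 4 of 7 p53 targets (0.001). Of the 6 probe sets of MDM4, 3 were above 0, with values from -0.67 to 0.18 log2. BMF, XIAP, CASP8 and MDM2 were higher in all 3 pairs (4 of 36, 21.1% of all genes), and BCL2L11, DIABLO, TNFRSF10A, FAS, CASP10 and CFLAR were lower in all 3 (6 of 36, 12.2% of all genes). With the replicate block 0 members and 0.00% of all genes passed. At an unadjusted p under 0.05 the block gave 2 of 36 members, PMAIP1 and XIAP, with adjusted p of 0.376 and 0.379, against 12.4% of all genes. PMAIP1 had 9.37, 9.72 and 9.09 log2 in ICC, below its same-numbered Control array for numbers 1 and 2 and above it for number 3. Its other probe set differed by 0.14 log2. The CA and ICC comparisons share the Control arrays.

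**Figure D2:**
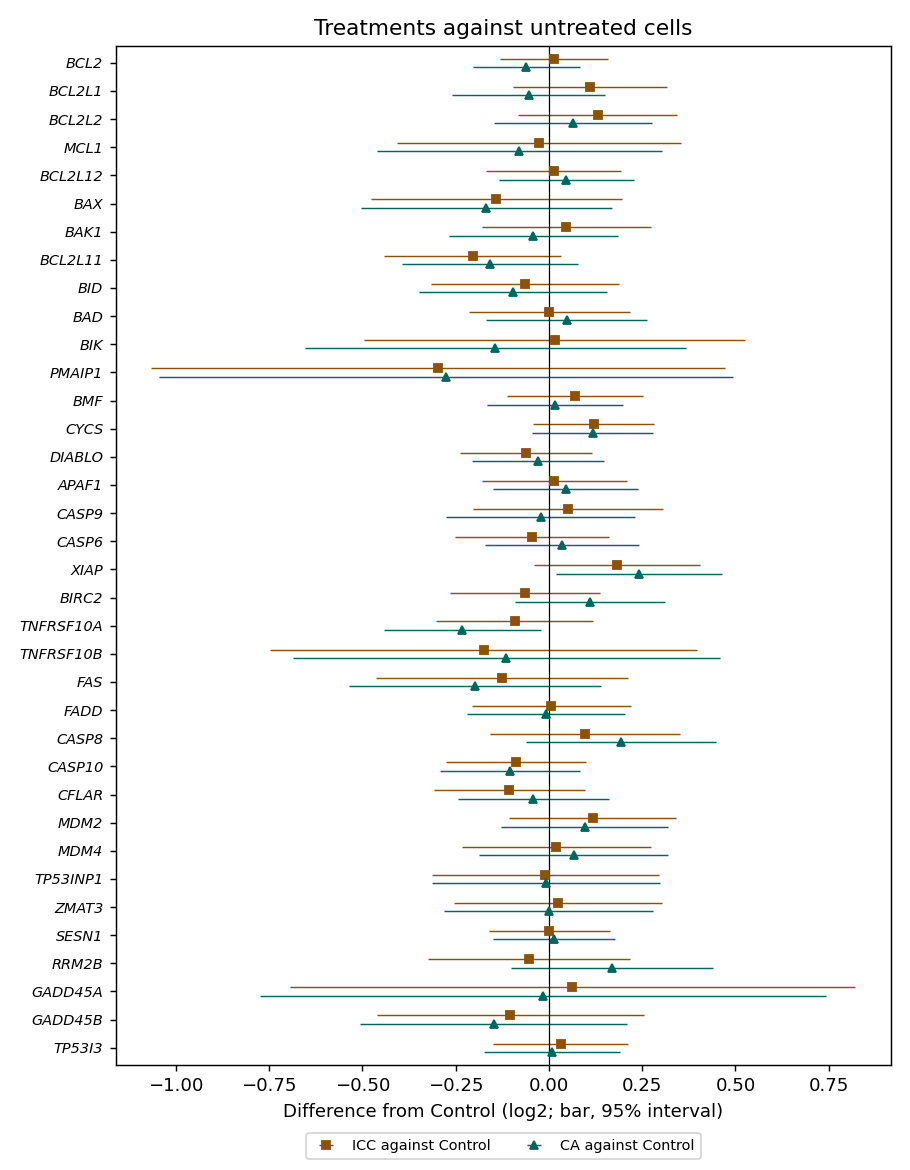
Difference from Control in log2 for ICC (squares) and CA (triangles) in each of 36 genes, with 95% intervals from the limma fit without a block. The ICC intervals all cross 0, and of the CA intervals those of XIAP and TNFRSF10A lie on 1 side of it; PMAIP1 and GADD45A have the widest intervals.

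ICC and CA were compared directly, at doses that differ. No member passed (0 of 36, 0.00% of all genes), and 0 of 36 reached an unadjusted p under 0.05, against 2.69% of all genes. The median difference of ICC minus CA was 0.02 log2 over the members, with 20 of 36 above 0, and 0.02 log2 over all genes, with 60.6% above 0. RRM2B had 7.56, 7.78 and 7.80 log2 in ICC, against 7.85, 8.13 and 7.82 in CA. These groups did not overlap, although number 3 differed by little, and the difference was -0.22 ± 0.12 log2 (unadjusted p = 0.0982). RRM2B was the 1 member of 36 entirely below CA, against 1.75% of all genes, and 0 of 36 were entirely above it, against 4.11%.

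BIRC2, the ubiquitin ligase cIAP1, had 10.44, 10.36 and 10.33 log2 in ICC, against 10.61, 10.64 and 10.40 in CA. It was lower in 3 of 3 pairs, by 0.17 log2 on average, with overlapping groups and an unadjusted p of 0.0814. BCL2L1 differed by 0.17 log2, TNFRSF10A by 0.14, BAK1 by 0.09 and BCL2 by 0.07 log2, while CASP6, an effector caspase, differed by -0.08 and CASP8 by -0.10 log2. All 4 BCL2L1 probe sets and all 6 MCL1 probe sets were higher in ICC than in CA, between 0.10 and 0.17 log2 for BCL2L1 and between 0.01 and 0.29 log2 for MCL1. Pairs were higher in ICC in 3 of 3 for BIK, CASP9, TNFRSF10A, FAS and TP53I3 (5 of 36, 15.5% of all genes) and lower in 3 of 3 for BIRC2, CASP8, MDM4 and RRM2B (4 of 36, 8.77% of all genes). With the replicate block 0 members and 1 gene in all (0.00506%) passed, and at an unadjusted p under 0.05 BIRC2 alone did (1 of 36, adjusted p = 0.810, against 5.96% of all genes).

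The same genes were then compared between replicate numbers, with treatment as a term, since each number holds 1 array of ICC, 1 of CA and 1 of Control. Number 2 was higher than number 3 in 4 of the 36 members, GADD45A, PMAIP1, MCL1 and FAS, and lower in 0. Over all genes 1.73% passed, 0.936% higher and 0.799% lower. At an unadjusted p under 0.05, 11 of 36 members passed (14.4% of all genes), 10 of them higher (7.39%) and 1 lower, TNFRSF10A (6.99%). The median difference of number 2 minus number 3 was 0.03 log2 over the members, with 26 of 36 above 0, and -0.003 log2 over all genes, with 48.8% above 0.

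GADD45A, which binds cell cycle and stress kinase regulators after DNA damage, had 10.84, 11.10 and 10.89 log2 on the number 2 arrays of ICC, CA and Control, against 10.13, 9.80 and 9.78 on the number 3 arrays. The number 1 arrays lay between, at 10.43, 10.26 and 10.54 log2. The 3 numbers did not overlap, and number 2 exceeded number 3 by 1.04 ± 0.12 log2, or 2.06-fold (adjusted p = 0.00740). GADD45A has 1 probe set with its symbol alone, so no other probe set checks it.

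PMAIP1 had 9.72, 9.99 and 10.22 log2 on the number 2 arrays of ICC, CA and Control, against 9.09, 8.77 and 8.94 on the number 3 arrays, and 9.37, 9.48 and 9.90 on the number 1 arrays. All number 2 arrays lay above all number 3 arrays, and the ICC number 2 array lay below the Control number 1 array. The difference between numbers 2 and 3 was 1.04 ± 0.12 log2 (adjusted p = 0.00909). Both of its probe sets passed when tested singly, at 1.04 and 1.22 log2. The promoter of PMAIP1 is printed above, and a link between its motif matches and this difference was not tested.

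MCL1 had 11.51, 11.58 and 11.51 log2 on the number 2 arrays, against 11.11, 10.94 and 11.05 on the number 3 arrays, and 11.27, 11.22 and 11.42 on the number 1 arrays. The 3 numbers did not overlap, and number 2 exceeded number 3 by 0.50 ± 0.08 log2, or 1.42-fold (adjusted p = 0.0193). All 6 probe sets were higher, between 0.10 and 0.98 log2, and 5 of them passed singly. In each treatment MCL1, PMAIP1 and GADD45A ran in the order number 2, number 1, number 3, as did 1.19% of all genes against 3 of 36 members.

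FAS had 8.58, 8.49 and 8.77 log2 on the number 2 arrays, against 8.30, 8.24 and 8.39 on the number 3 arrays. The groups did not overlap, and the difference was 0.30 ± 0.06 log2, or 1.23-fold (adjusted p = 0.0483). All 5 FAS probe sets were higher, between 0.06 and 0.47 log2. Tested singly, 1 dimmer probe set passed, while the brightest did not (adjusted p = 0.0649).

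These calls rested on few arrays. Without the CA number 3 array 6 genes passed, and without the Control number 3 array 8 did. Of the members 0 passed in either case, with adjusted p of 0.0715 and 0.0737 for GADD45A. Without the CA number 2 array 17 genes passed, with GADD45A alone of the members. Without the Control or the ICC number 2 array 35 and 44 genes passed, with GADD45A and PMAIP1 of the members. FAS failed whichever of the 9 arrays was left out, with adjusted p between 0.0570 and 0.232. The differences themselves stayed between 0.90 and 1.18 log2 for GADD45A, 0.91 and 1.24 for PMAIP1, 0.44 and 0.56 for MCL1 and 0.27 and 0.33 for FAS.

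**Figure D3:**
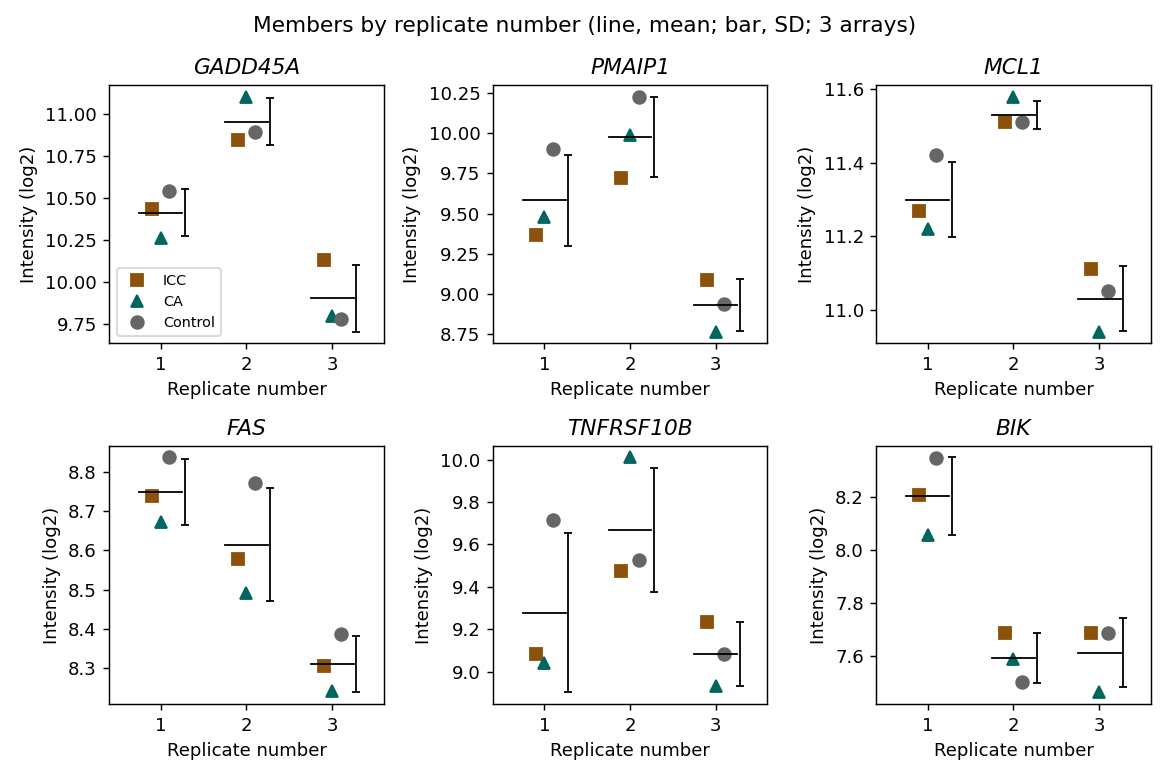
Log2 intensity of 6 genes by replicate number, with 1 point for each treatment, a line for the mean and a bar for the SD of the 3 arrays. GADD45A, PMAIP1 and MCL1 are highest at number 2 and lowest at number 3, FAS is lowest at number 3, and BIK is highest at number 1.

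TNFRSF10B, the TRAIL receptor DR5, had 9.48, 10.01 and 9.52 log2 on the number 2 arrays, against 9.24, 8.93 and 9.08 on the number 3 arrays. The groups did not overlap, and the difference of 0.59 ± 0.18 log2 did not pass (adjusted p = 0.154). The Control number 1 array, at 9.71 log2, stood above the ICC and CA number 1 arrays, at 9.08 and 9.04. All 4 TNFRSF10B probe sets were higher for number 2, between 0.11 and 0.59 log2, and 0 passed singly.

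GADD45B, a relative of GADD45A, had 7.50, 7.28 and 7.73 log2 on the number 2 arrays, against 7.17, 7.20 and 6.99 on the number 3 arrays. The difference of 0.38 ± 0.11 log2 did not pass (adjusted p = 0.137). Of its 4 probe sets 3 were higher, with 2 passing singly and values from -0.07 to 0.89 log2. CASP8 differed by 0.28 log2 (adjusted p = 0.102) and CASP9 by 0.25 log2 (adjusted p = 0.104). All 3 probe sets of each were above 0.

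TNFRSF10A had 7.49, 7.43 and 7.59 log2 on the number 2 arrays, against 7.80, 7.46 and 7.82 on the number 3 arrays. It was lower in each treatment, by 0.19 ± 0.08 log2, and did not pass (adjusted p = 0.262). Number 2 was above number 3 in all 3 treatments for 14 members, against 16.6% of all genes. Besides the 4 that passed, these were BCL2L11, BID, CYCS, CASP9, XIAP, TNFRSF10B, CASP8, CFLAR, MDM2 and GADD45B. It was below in all 3 for 2 members, TNFRSF10A and FADD, the adaptor of the receptor route, against 16.7%. The number 2 arrays all lay above all number 3 arrays in 12 of 36 members, against 9.47% of all genes. By role, the mean of number 2 was above number 3 in 5 of 5 pro-survival genes (median 0.03 log2) and 1 of 2 pore-forming genes (-0.05). The counts were 4 of 6 BH3-only genes (0.10) and 3 of 5 genes of mitochondrial release and caspase activation (0.02). They were 2 of 2 caspase inhibitors (0.11), 5 of 7 death receptor genes (0.15), 1 of 2 p53 inhibitors (0.05) and 5 of 7 p53 targets (0.006).

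**Figure D4:**
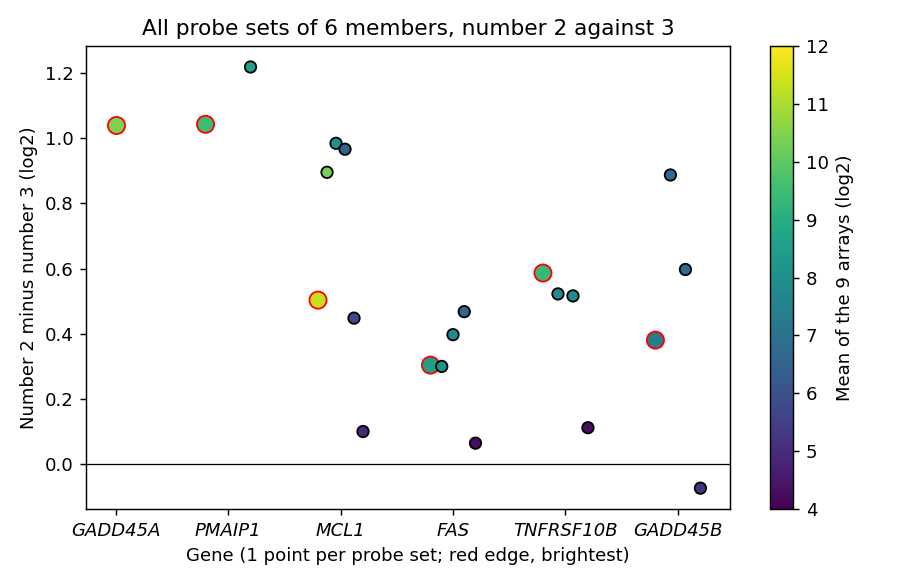
Number 2 minus number 3 in log2 for every single-gene probe set of 6 genes, colored by the probe set's mean log2 intensity, with the brightest one of each gene edged in red. All points of PMAIP1, MCL1, FAS and TNFRSF10B lie above 0, and the dimmest point of GADD45B lies at -0.07.

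A few further p53 targets and regulators differed between numbers 2 and 3, while their list as a whole lay near all genes. Of 78 further genes in 3 lists, 72 were measured, and the rest were not analysed here. Of 39 further p53 targets and regulators 4 were higher in number 2 than in number 3 (0.936% of all genes) and 1 was lower (0.799%). In this list 18 of 39 genes were above 0, with a median of -0.003 log2. Over all genes 48.8% were above 0, also with a median of -0.003 log2. CDKN1A, the cell cycle inhibitor p21, had 9.40, 10.06 and 9.59 log2 on the number 2 arrays, while its number 3 arrays lay between 7.97 and 8.65, a difference of 1.48 ± 0.22 log2 (adjusted p = 0.0193). PPM1D, a phosphatase that acts on p53, was higher by 0.44 log2 (adjusted p = 0.0193), and TP53I11 was lower by 0.44 log2 (adjusted p = 0.0212). The other 2 higher genes were SESN2, by 1.69 log2, and IER3, by 0.66 log2, which fall outside the rule for naming and were chosen after their values were seen, because the count is small. Of 12 further BCL2 family genes and 21 further caspases and regulators, 0 passed in either direction. At an unadjusted p under 0.05, 2 of the 12 and 7 of the 21 did, against 14.4% of all genes.

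Number 1 was higher than numbers 2 and 3 together in 2 of the 36 members, BIK and FAS, and lower in 0. Over all genes 5.07% passed, 4.03% higher and 1.05% lower. At an unadjusted p under 0.05, 10 of 36 members passed (19.7% of all genes), 9 of them higher (14.2%) and 1 lower, MDM4 (5.44%). The count of members that passed after adjustment is thus near the share over all genes. The median difference was 0.08 log2 over the members, with 26 of 36 above 0, and 0.03 log2 over all genes, with 60.2% above 0.

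BIK had 8.21, 8.06 and 8.35 log2 on the number 1 arrays of ICC, CA and Control, against 7.69, 7.59 and 7.50 on the number 2 arrays and 7.69, 7.46 and 7.69 on the number 3 arrays. No number 1 array overlapped the others, and the difference was 0.60 ± 0.07 log2, or 1.52-fold (adjusted p = 0.00138). BIK passed with any 1 of the 9 arrays left out, with adjusted p between 0.00146 and 0.0157. It has 1 probe set.

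FAS had 8.74, 8.67 and 8.84 log2 on the number 1 arrays, a difference from numbers 2 and 3 of 0.29 ± 0.06 log2 (adjusted p = 0.0170). The CA number 1 array lay below the Control number 2 array, while number 1 was highest within each treatment. All 5 FAS probe sets were higher for number 1, between 0.09 and 0.33 log2, and 2 passed singly. Without the Control, CA or ICC number 1 array, or without the ICC number 2 array, FAS did not pass, with adjusted p of 0.0579, 0.108, 0.0994 and 0.0507. Without the Control number 1 array BAX passed in its place.

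BID, the BH3-only protein that caspase-8 cleaves, differed by 0.21 ± 0.06 log2 (adjusted p = 0.0837) and did not pass. FADD differed by 0.18 log2, the BH3-only gene BAD by 0.18, CASP9 by 0.15 and DIABLO, which encodes the mitochondrial protein SMAC that releases caspases from their inhibitors, by 0.14 log2. MDM4, a p53 inhibitor, differed by -0.21 log2. These 5 had adjusted p between 0.128 and 0.197. All 3 probe sets of BID and of BAD were above 0 for number 1, whereas 1 of the 3 CASP9 probe sets was.

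Number 1 was above both other numbers in all 3 treatments for 9 members, BCL2L12, BID, BAD, BIK, DIABLO, FAS, FADD, CASP10 and TP53I3, against 12.8% of all genes. It was below both in all 3 treatments for 0 members, against 4.75%. By role, number 1 was above the other 2 numbers in 5 of 5 pro-survival genes (median 0.07 log2), 2 of 2 pore-forming genes (0.19), 5 of 6 BH3-only genes (0.15), 6 of 7 death receptor genes (0.11) and 4 of 5 genes of mitochondrial release and caspase activation (0.14). It was above them in 1 of 2 caspase inhibitors (-0.003), 0 of 2 p53 inhibitors (-0.15) and 3 of 7 p53 targets (-0.01). Over all genes 60.2% were above 0 in this contrast, with a median of 0.03 log2. Within each treatment the number 1 array also had the highest median intensity of its arrays. With arrays centred on their medians, the number 1 difference was 0.25 log2 for FAS and 0.18 log2 for BID.

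The remaining members varied little or with no order shared by the treatments. BAX, a pore-forming protein, had 8.04, 7.86 and 7.75 log2 on the number 1 arrays of ICC, CA and Control, 7.46, 7.55 and 7.72 on the number 2 arrays and 7.53, 7.54 and 7.99 on the number 3 arrays. The Control number 3 array stood apart from the ICC and CA arrays of its number, and the difference of number 1 from the others, 0.25 ± 0.10 log2, did not pass (adjusted p = 0.224). APAF1, the scaffold of the apoptosome, lay between 6.78 and 7.10 log2 on the 9 arrays and BMF, a BH3-only protein tied to the cytoskeleton, between 6.34 and 6.63. SESN1, a sestrin that p53 induces, lay between 7.54 and 7.73 log2, and TP53I3, a p53-induced oxidoreductase, between 7.52 and 7.80. ZMAT3, an RNA-binding protein that p53 induces, lay between 6.44 and 6.98 log2, with both ends of its range on Control arrays, and TP53INP1 between 4.72 and 5.21, also with both ends on Control arrays.

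Of 21 further caspases and regulators, 3 were higher (4.03% of all genes) and 1 was lower (1.05%) in number 1 than in numbers 2 and 3. CASP1, the inflammatory caspase, had 7.98, 8.01 and 7.71 log2 on the number 1 arrays, while its other 6 arrays lay between 6.89 and 7.06, a difference of 0.92 ± 0.07 log2 (adjusted p = 1.18e-04). TNFSF10, the ligand TRAIL, differed by 0.64 log2 (adjusted p = 0.00124) and AIFM2 by 0.31 log2 (adjusted p = 0.0120). The lower gene was DAPK1, by 0.23 log2 (adjusted p = 0.0365), likewise named after its value was seen. Of the 39 genes of the p53 list 3 were higher, against 4.03% of all genes, and 0 were lower. The 3 were DDB2, a DNA damage recognition protein, higher by 0.38 log2, HIPK2 by 0.26 log2 and IER3 by 0.48 log2. Of 12 further BCL2 family genes 0 passed, and 2 had an unadjusted p under 0.05, against 19.7% of all genes.

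**Figure D5:**
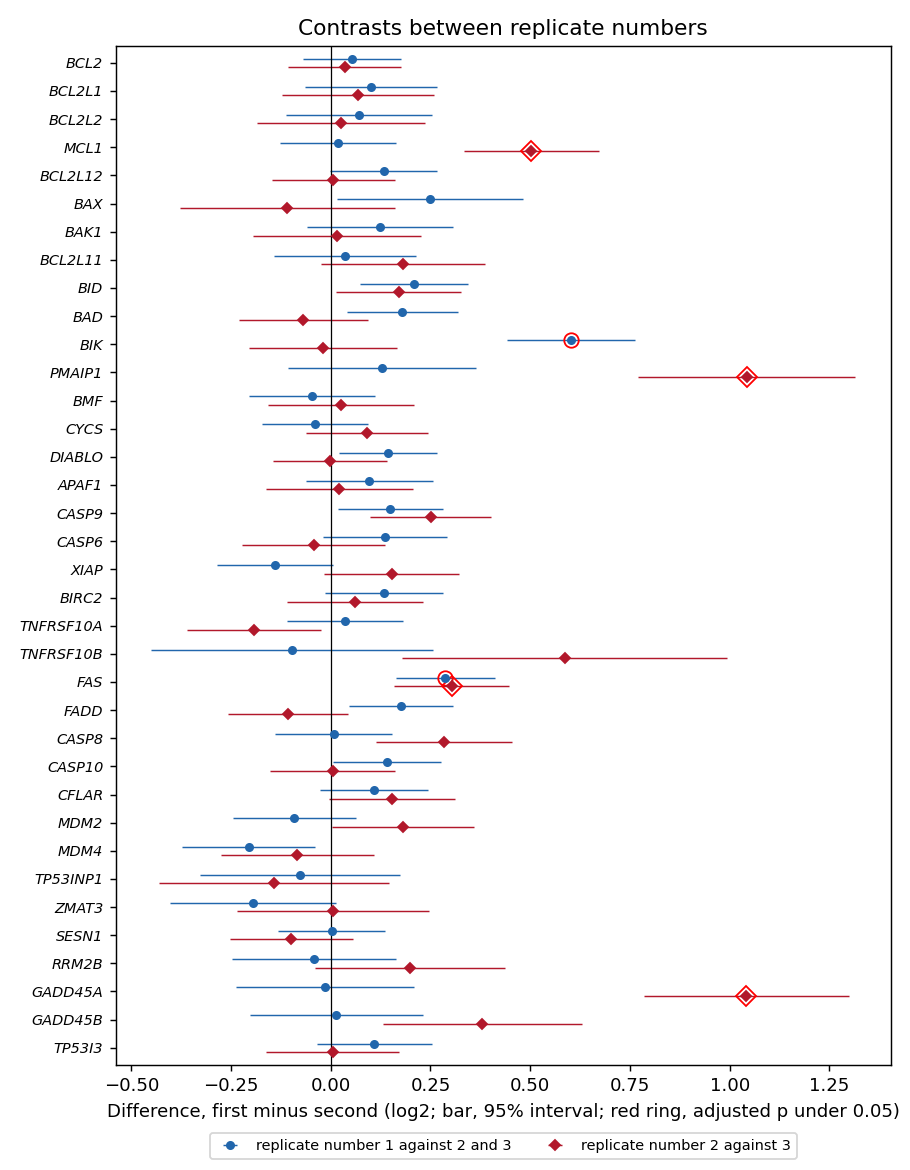
Difference between replicate numbers in log2 for 36 genes, number 1 minus numbers 2 and 3 (circles) and number 2 minus number 3 (diamonds), with 95% intervals; red rings mark an adjusted p under 0.05. The rings are on BIK and FAS for number 1 and on GADD45A, PMAIP1, MCL1 and FAS for number 2.

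The further lists did not pass for any treatment. For CA against Control 0 of 72 passed and 2 had an unadjusted p under 0.05, against 4.47% of all genes. They were TNFRSF10C, a TRAIL receptor that lacks a death domain, at 0.34 log2, and GADD45G, a further GADD45 gene, at -0.35 log2, each with an adjusted p of 0.996. TNFRSF10C had 5.95, 6.18 and 6.28 log2 in CA, against 5.74, 5.84 and 5.82 in Control, with no overlap at a level below the median of all genes. For ICC against Control 0 of 72 passed and 3 had an unadjusted p under 0.05, against 7.73% of all genes. The 3 were THBS1 at -0.40 log2, POLK at 0.17 log2 and TNFRSF10C at 0.21 log2. For ICC against CA 0 of 72 passed, and 0 had an unadjusted p under 0.05, against 2.69% of all genes.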

How the data were processed

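Total RNA of 9 HT29 samples was hybridised to Affymetrix arrays. The deposited table holds linear intensity normalized with RMA by the authors, per the submitters' processing notes. The version of RMA is not given in the sources used here. A log2 scale had been planned for, so the log2 of each deposited intensity was taken here. Of 54675 probe sets, 62 controls, 1801 with several symbols and 11721 without a symbol were left out. Each of 19775 genes was read from its brightest single-symbol probe set.

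The test was the moderated one of limma 3.58.1 (R 4.3.3), fitted to all 9 arrays with group means for the treatments and with treatment as a term for the replicate numbers. Benjamini-Hochberg adjustment ran across the 19775 genes, with an adjusted p under 0.05 as the threshold. The number of arrays limits the precision, and an exact permutation test of 3 against 3 cannot give a p under 0.1. Sums of squares were split into number and treatment. Figures used matplotlib 3.10.9.

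After each group's mean was removed, same-numbered arrays correlated with r of 0.327 to 0.518 in 9 of 9 pairs, and others with r of -0.436 to 0.0839. The deviations of a group sum to 0, which pushes the other pairs below 0. The numbers in the labels were therefore used to pair arrays in the counts of same-numbered pairs and in the replicate block. The main treatment fit used group means only and ignored this pairing, so its SE and p include the spread between numbers. For CA against Control the SE of PMAIP1, the largest among the members, was 0.35 log2 without the block and 0.12 log2 with it. The unadjusted limma p of FAS was 0.224 without the block and 0.0121 with it. No member passed in either fit.

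The members and lists were chosen with earlier results of these data known. The 8 members with the largest moderated t in each contrast, and those that passed, were named, and at most 3 genes of a further list, by smallest p. Alternatives were the replicate block, no treatment term, repeated quantile normalization, centred arrays, no dim genes, means of probe sets, no _x_at or _s_at probe sets, and each array left out. Testing probe sets singly was added after seeing the data.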

Additional observations from a re-analysis of the deposited data

How the results depend on the processing

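Of 874 recomputed differences of named genes, 828 kept their direction and side of the threshold, 30 lost the call, 4 gained it and 12 reversed; the causes were not tested, apart from the fewer arrays or probe sets that a setting holds.

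With the replicate block 3 genes passed for CA against Control and 1 for ICC against CA, none of them a member, so the block changed no treatment call of a member. Without each array in turn and with the block, 0 to 1 gene passed for CA against Control, 1 without the Control number 3 array.

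For number 1, leaving out each array gave 337 to 939 genes and 1 to 2 members. Without a treatment term, with repeated quantile normalization or without _x_at and _s_at probe sets 1 member, BIK, passed. Over all genes 791, 840 and 733 passed under these settings. For number 2 against 3, 214 genes and 3 members passed without a treatment term, where FAS was lost (adjusted p = 0.118), and FAS was also lost with repeated quantile normalization (0.0602). Without dim genes 692 genes and 6 members passed, with CASP8 (0.0481) and CASP9 (0.0444) added, and for number 1 BID passed (0.0387). With the mean over probe sets GADD45B passed (0.0430). Leaving out each array gave 6 to 360 genes and 0 to 3 members. Without _x_at and _s_at probe sets 277 genes and 2 members passed, GADD45A and MCL1, while PMAIP1 had no probe set left and was not tested there. With probe sets tested singly, which was chosen after seeing the data, 1412 genes and 3 members passed for number 1, and 399 genes and 6 members for number 2 against 3.

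When probe sets of a gene were averaged the direction reversed for CASP10 (0.0157 log2) and CYCS (-0.0615) in CA against Control, and for CASP10 (0.0257), CYCS (-0.123) and MDM2 (-0.101) in ICC against Control. Without _x_at and _s_at probe sets it reversed for MDM2 in ICC against Control (-0.142), CASP8 in ICC against CA (0.0433), CASP9 in number 1 (-0.0403) and GADD45B in number 2 against 3 (-0.0743). BAK1 in ICC against CA reversed without the ICC number 1 array (-0.0215, within a range to 0.182 over the arrays left out, and -0.0145 with the block, within a range to 0.204), and BCL2L2 in ICC against Control reversed without the ICC number 3 array with the block (-0.00515).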
